A study of Gossypium hirsutum with 18 samples.

Results

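Of the 70478 genes in the deposited table for upland cotton (Gossypium hirsutum), 72 had a description naming light-harvesting or chlorophyll a/b-binding proteins. Of these, 59 reached an FPKM (fragments scaled for gene length and library depth) of at least 1 in at least 3 of the 18 libraries, and these 59 are described here as the antenna family. Classes came from the deposited KEGG and GO annotations. By a grouping of these classes made here, 46 members were counted as antenna proteins proper. These comprised 21 genes of the photosystem I antenna (LHCA1 to LHCA5, with 2 genes described as LHCA6 that carry the KEGG entry of LHCA2 counted under LHCA2), 15 of the major photosystem II antenna (LHCB1, LHCB2, LHCB3) and 10 of the minor photosystem II antenna (LHCB4, LHCB5, LHCB6). The other 13 were counted as relatives of the same protein family: 4 PsbS genes, 2 LHCB7 genes, 4 genes that carry the GO terms of Arabidopsis LIL3 and 3 that carry those of Arabidopsis early light-induced proteins (ELIP). LHCB7 was set among the relatives by this grouping, not by its annotation. By gene name, 27 members lay on the A subgenome, 28 on the D subgenome and 4 on unplaced scaffolds. Upland cotton carries both subgenomes, and no source used here says how the counting treated reads that match an A and a D copy equally, so the split between copies is uncertain.

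Light-harvesting proteins bind chlorophyll and carotenoids in the thylakoid membrane of chloroplasts and pass absorbed light energy to the reaction centres. LHCA proteins form a belt beside photosystem I, LHCB1, LHCB2 and LHCB3 form the trimers that surround photosystem II, and the minor LHCB proteins join those trimers to its core. In Arabidopsis, PsbS is needed for the rapid dissipation of excess light energy as heat, LIL3 helps anchor enzymes of chlorophyll synthesis to the membrane, and early light-induced proteins accumulate under light stress.

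RNA came from roots and leaves of seedlings that were raised in soil and then moved into an alkaline solution. Treatment lasted 12 h in either 125 mM NaHCO3 or a NaOH solution of equal pH. The treated groups are coded AS and SAS, and the labels leave unsaid which code is which solution, so the codes are kept. CK is the group without treatment, and its solution and sampling time are not given. No genotype, transgene or plant age is given. With roots and leaves kept apart, these codes give 6 groups, each of 3 poly(A) RNA libraries. The labels do not say that the 3 came from separate plants, so p-values measure only the spread between libraries, which may be technical.

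Total counts per library ranged from 46345805 to 66843791. Summed FPKM of 36 leaf marker genes, mostly rubisco small subunits and Calvin cycle enzymes, was 19742 to 24438 in CK leaves and 703 to 789 in CK roots, and 0 and 2 of these genes, respectively, had no count in any library. Summed FPKM of 62 root marker genes was 152 to 161 in CK leaves and 410 to 438 in CK roots. Of these genes 24 and 19, respectively, had no count in any library, so the root list is the weaker check. Each marker sum was higher in its own tissue. One library stood apart: replicate 3 of SAS leaves had the highest CPM of its group for 54 of the 58 members tested in leaves, against 34.2% of all genes tested. Its CPM was a median of 1.85 times the mean of the other SAS leaf libraries for the members, 1.60 times for the leaf markers and 0.990 times for all genes tested. The main counts over members, roles and lists in SAS leaves are therefore also given without it. Most single genes are given only with it. In bulk tissue, fewer cells of a type and less RNA per cell cannot be told apart.

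In CK leaves, transcripts of the minor antenna protein LHCB4 were the most abundant of the family. Gh_D01G2232 (LHCB4, chromosome D01, 61263913 to 61265147, plus strand) was listed at 509, 455 and 368 FPKM in the CK leaf libraries. Gh_A01G1972 (LHCB4, chromosome A01, 99703716 to 99704948, plus strand) was listed at 485, 423 and 333 FPKM. These values overlapped between both genes, which lie at the top of the order of levels, and every other member was below them in every CK leaf library. Together the 6 LHCB4 genes made up 31.6% of the summed FPKM of the members, against 5.30% for the 7 LHCB1 genes, 10.0% for LHCA1, 9.87% for LHCA2, 10.7% for LHCA3 and 8.01% for PsbS. The next levels in mean FPKM were 137 ± 11.7 (SD, n = 3) for Gh_A01G1598 (PsbS), 123 ± 30.4 for Gh_D05G0860 (LHCA1), 116 ± 20.9 for Gh_D05G2361 (LHCB5), 100.1 ± 15.1 for Gh_D01G1508 (LHCA2) and 97.7 ± 26.6 for Gh_D11G1504 (LHCA3). Their ranges overlapped, so neighbours in that order did not differ beyond their spread. In all, 6 members had a mean of at least 100 FPKM in CK leaves, 37 lay from 10 to under 100, 14 from 1 to under 10, and 2 lay under 1. Within a class the copies could differ widely: LHCB4 genes spanned 2.10 to 444 FPKM and LHCB1 genes 1.02 to 65.0.

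**Figure D1:**
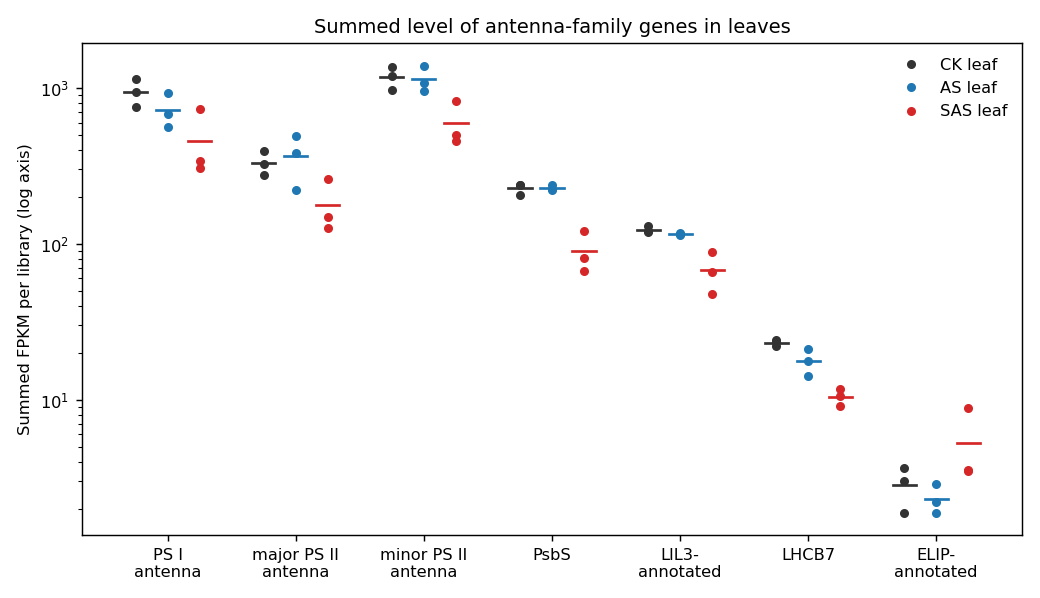
Summed FPKM (log axis) of each role of the antenna family in the 9 leaf libraries, with points for libraries and bars for group means. Photosystem I, minor and major photosystem II antenna, PsbS and LIL3-annotated genes have lower means in SAS than in CK leaves, and the third SAS library lies above the other SAS libraries in each of these roles.

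Roots held little antenna RNA. The 46 antenna genes summed to 14.7, 16.0 and 17.4 FPKM in CK roots, against 2007, 2462 and 2901 FPKM in CK leaves. In CK roots 10 of the 59 members had no count in any library, 11 reached 1 FPKM in at least 1 library, and 8 reached it in every library. Because 48 members entered through their leaf values alone, a count of members higher in leaves describes the choice as much as the tissue. As a description, 56 of 59 were called higher in CK leaves than in CK roots and 3 lower (edgeR's quasi-likelihood test, adjusted p under 0.05), where 66.2% of all genes tested were called, 34.7% higher and 31.4% lower. With members at 0 counts in CK roots assigned 3 counts in each library, the median log2 difference was 7.11 over the 59 members and 7.51 over the 46 antenna genes. Gh_A03G2154 (LHCB6) had no count in CK roots and was at least 488-fold higher in CK leaves.

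The 3 members higher in roots were not antenna proteins proper. Gh_D09G2122 (ELIP-annotated, chromosome D09, 48444471 to 48445147, minus strand) was listed at 6.74, 3.10 and 1.84 FPKM in CK roots and at 0.335, 0.411 and 0.359 FPKM in CK leaves (log2 difference leaf minus root -3.55 ± 0.65 SE, edgeR adjusted p = 1.74e-04). Gh_A09G2229 (ELIP-annotated, scaffold2277_A09, 30624 to 31300, minus strand) was at 13.8, 4.26 and 2.24 FPKM in CK roots and 2.14, 1.28 and 1.87 FPKM in CK leaves (-2.12 ± 0.57, edgeR adjusted p = 0.00384). Both genes were higher in every CK root library than in any CK leaf library. Gh_A02G1068 (LHCB7) was at 8.73, 6.44 and 7.99 FPKM in CK roots and 5.92, 5.37 and 7.93 FPKM in CK leaves (-0.50 ± 0.16, edgeR adjusted p = 0.0139). Its groups overlapped, and the call was lost when library totals were the only scaling. The ELIP-annotated genes lie in short clusters: Gh_D09G2123 starts 2259 bp beyond Gh_D09G2122 on the same strand, and Gh_A09G2230, which did not reach the FPKM rule, lies 2232 bp from Gh_A09G2229. The copies did not share levels, since Gh_D09G2123 was at 1.16, 0.189 and 0.765 FPKM in CK leaves and at 0, 0 and 0.114 FPKM in CK roots.

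**Figure D2:**
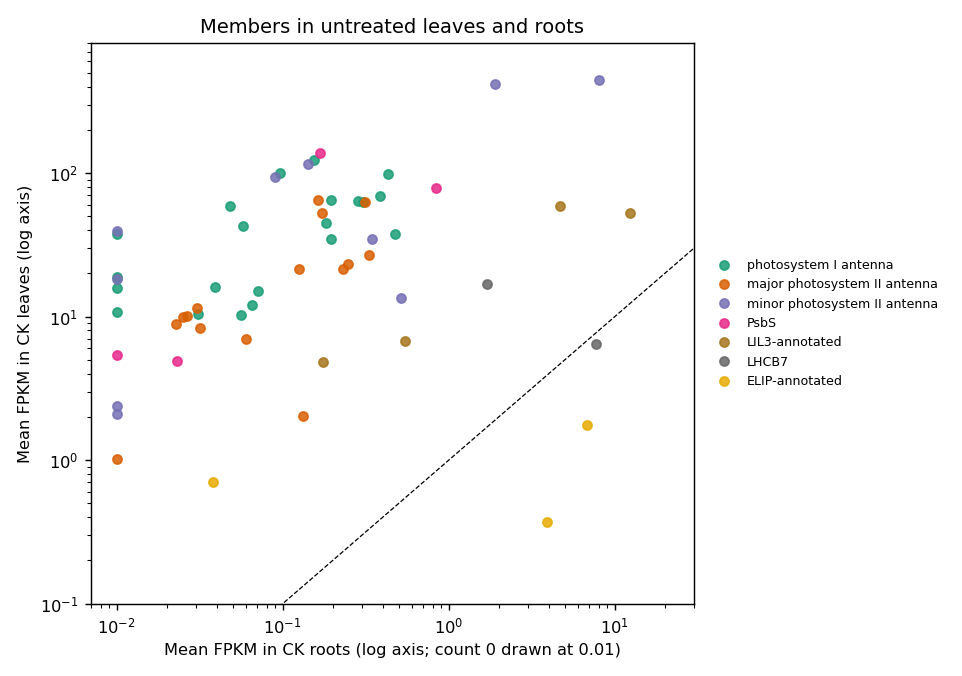
Mean FPKM of each of the 59 members in CK roots (horizontal, log axis, members with no count drawn at the left edge) and in CK leaves (vertical, log axis), coloured by role, with a dashed line of equal levels. Antenna genes lie far above the line, and only 2 ELIP-annotated genes and 1 LHCB7 gene lie below it.

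In SAS leaves the antenna family fell broadly. Of 58 members tested in leaves, 37 fell against CK, 0 rose and 21 did not pass the test, where 53.2% of all genes tested changed (26.0% fell and 27.2% rose). At an unadjusted p under 0.05 the same edgeR test gave 47 lower and 0 higher. At an adjusted p under 0.05 DESeq2 called 44 lower and 0 higher, and limma on log2(FPKM + 1) 41 and 0. The median log2 change was -1.01 over the members and -0.00 over all genes tested, and 56 of 58 members had a negative value. Summed over the 59 members, FPKM was 3297, 2844 and 2358 in CK leaves and 1100, 1072 and 2037 in SAS leaves, so that every SAS library lay below every CK library. The mean SAS sum was 49.5% ± 19.4 (SD, n = 3) of the mean CK sum. Without SAS leaf replicate 3, 50 of 58 members fell, where 54.4% of all genes tested were called in either direction, and the sum was 38.3% of CK. The rule could favour members that reached 1 FPKM only where they were high. In a fit of all 18 libraries, 18 of 59 members fell and 1 rose, where 16.3% of all genes fell and 17.4% rose. Among the 52 members at or above 1 FPKM in all 9 leaf libraries, 34 fell and 0 rose.

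The photosystem I antenna was lower in SAS leaves in every gene by its fitted value, and 13 of its 21 genes fell (median log2 change -1.01). All 5 LHCA1, all 5 LHCA2 and both LHCA5 genes fell, as did 1 of 4 LHCA4 genes. Gh_D05G0860 (LHCA1), the gene of this group with the highest level, was at 156, 117 and 95.9 FPKM in CK and 34.4, 41.5 and 77.6 FPKM in SAS leaves. The groups did not overlap, and the log2 change was -1.30 ± 0.31 (SE, edgeR adjusted p = 0.00546). None of the 5 LHCA3 genes passed, with log2 values from -1.01 to -0.77, although 4 had an unadjusted edgeR p under 0.05. The LHCA3 gene Gh_D11G1504 shows the spread: it was at 125, 95.3 and 72.3 FPKM in CK and 29.3, 36.2 and 91.6 FPKM in SAS leaves (-0.94 ± 0.39, edgeR adjusted p = 0.0678), and SAS replicate 3 overlapped CK. LHCA3 genes were a median of 2.68 times higher in that library than in the other SAS leaf libraries. Without it, all 5 LHCA3 genes and all 21 photosystem I antenna genes fell.

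Among the 15 major photosystem II antenna genes, which form the light-harvesting trimers, 7 fell in SAS leaves (median log2 change -0.90) and 10 fell without SAS leaf replicate 3. The 7 comprised 3 of 7 LHCB1, 3 of 5 LHCB2 and 1 of 3 LHCB3 genes. Gh_D10G0369 (LHCB1, chromosome D10, 3269242 to 3270036, plus strand) was at 75.3, 61.3 and 58.3 FPKM in CK and 22.9, 25.8 and 34.6 FPKM in SAS leaves (-1.26 ± 0.25, edgeR adjusted p = 0.00224). All SAS libraries were below all CK libraries. The LHCB3 gene Gh_D05G3484 fell less, from 24.2, 21.2 and 18.8 FPKM to 12.0, 11.3 and 18.8 FPKM (-0.64 ± 0.20, edgeR adjusted p = 0.0232), and this call was lost without CK leaf replicate 1 or 2 and without SAS leaf replicate 1 or 2 (log2 -0.63 to -0.52). The highest SAS and the lowest CK library were level in this gene. Neither low-level LHCB1 copy of a close pair passed the test. Gh_D06G2351 was at 2.25, 2.0 and 1.85 FPKM in CK and 1.94, 1.12 and 2.80 FPKM in SAS leaves (-0.09 ± 0.30, edgeR adjusted p = 0.811). Its neighbour Gh_D06G2350, 1133 bp away on the opposite strand, was at 1.23, 1.13 and 0.701 FPKM in CK and 0.279, 0.228 and 0.537 FPKM in SAS leaves (-1.56 ± 0.99, edgeR adjusted p = 0.211). The CK and SAS groups of Gh_D06G2350 did not overlap, and it was called lower without AS leaf replicate 3 (-1.56). It passed the FPKM rule only through CK and AS leaves, which favours a fall in SAS, so both are descriptions.

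In the minor photosystem II antenna 8 of 10 genes fell in SAS leaves (median log2 change -1.27), and all 10 fell without SAS leaf replicate 3 (-1.48). All 6 LHCB4 and both LHCB6 genes fell. The LHCB4 genes at the top of the family went down in every SAS library: Gh_D01G2232 was at 224, 192 and 306 FPKM in SAS leaves (-0.92 ± 0.19, edgeR adjusted p = 0.00274) and Gh_A01G1972 at 163, 145 and 251 FPKM (-1.18 ± 0.22, edgeR adjusted p = 0.00152). By fitted value, low-level LHCB4 copies had the largest falls of all members. Gh_D06G1791 (chromosome D06, 57744841 to 57746534, minus strand) was at 1.76, 2.63 and 2.81 FPKM in CK and 0.128, 0.312 and 0.134 FPKM in SAS leaves (-3.58 ± 0.40). Gh_A06G1447 (chromosome A06, 97326012 to 97327688, plus strand) was at 1.73, 1.96 and 2.61 FPKM in CK and 0.410, 0.278 and 0.518 FPKM in SAS leaves (-2.38 ± 0.35). Both passed the FPKM rule only through CK and AS leaves, which favours a fall in SAS. Their falls, also counted above, are therefore descriptions. The 2 LHCB5 genes did not pass the adjusted test, and both had an unadjusted edgeR p under 0.05. Gh_D05G2361 (LHCB5) was at 137, 118 and 94.9 FPKM in CK and 39.7, 46.7 and 116 FPKM in SAS leaves (-0.83 ± 0.36, edgeR adjusted p = 0.0781), and without SAS leaf replicate 3 both LHCB5 genes fell.

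The relatives of the antenna proteins fell too, apart from the ELIP-annotated genes. All 4 PsbS genes fell in SAS leaves, with log2 changes from -1.44 to -1.02. Gh_A01G1598 (PsbS, chromosome A01, 93566593 to 93567799, minus strand) was at 143, 145 and 124 FPKM in CK and 48.7, 36.0 and 70.7 FPKM in SAS leaves (-1.44 ± 0.19, edgeR adjusted p = 2.45e-04), and Gh_D01G1860 (PsbS) went from 79.2 ± 5.94 to 33.2 ± 8.93 FPKM (SD, n = 3 each; -1.29 ± 0.16, edgeR adjusted p = 1.49e-04). The groups of both genes were well apart. All 4 LIL3-annotated genes fell: Gh_D08G1772 was at 64.8, 56.9 and 55.3 FPKM in CK and 35.0, 23.2 and 44.8 FPKM in SAS leaves (-0.82 ± 0.18, edgeR adjusted p = 0.00379), and Gh_A08G1476 went from 52.9 ± 2.33 to 29.0 ± 7.38 FPKM (-0.90 ± 0.14, edgeR adjusted p = 6.43e-04). Of the LHCB7 copies, Gh_D03G0610 fell from 18.2, 16.8 and 15.5 FPKM to 5.71, 4.11 and 6.60 FPKM (-1.65 ± 0.19, edgeR adjusted p = 1.20e-04). Gh_A02G1068 went from 6.41 ± 1.35 to 5.01 ± 0.118 FPKM and did not pass (-0.38 ± 0.15, edgeR adjusted p = 0.0599). It was called lower in the fit of all 18 libraries (-0.49, edgeR adjusted p = 0.0328), with a minimum of 5 FPKM (adjusted p = 0.0477) and without CK leaf replicate 2 (adjusted p = 0.0360). Under the other alternatives it did not pass, and the copies were not tested against each other. Neither of the 2 ELIP-annotated genes that passed the leaf filter was called. Without SAS leaf replicate 3, all 4 PsbS genes, all 4 LIL3-annotated genes, 1 of 2 LHCB7 genes and 0 of 2 ELIP-annotated genes fell. Gh_A09G2229 was at 4.88, 2.05 and 2.01 FPKM in SAS leaves, overlapping CK (0.72 ± 0.42, edgeR adjusted p = 0.173). Gh_D09G2122, which did not pass the leaf filter, was at 0.335, 0.411 and 0.359 FPKM in CK, 0.294, 0.267 and 0.364 FPKM in AS and 2.90, 1.21 and 0.533 FPKM in SAS leaves. In the fit with no filter, where 39.4% of all genes were called, it was the only member higher in SAS leaves (2.03 ± 0.62, edgeR adjusted p = 0.0225), with no overlap. The call was lost without SAS leaf replicate 1 (1.23, edgeR adjusted p = 0.185) and the change was 2.45 without SAS leaf replicate 3 (adjusted p = 0.00390).

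**Figure D3:**
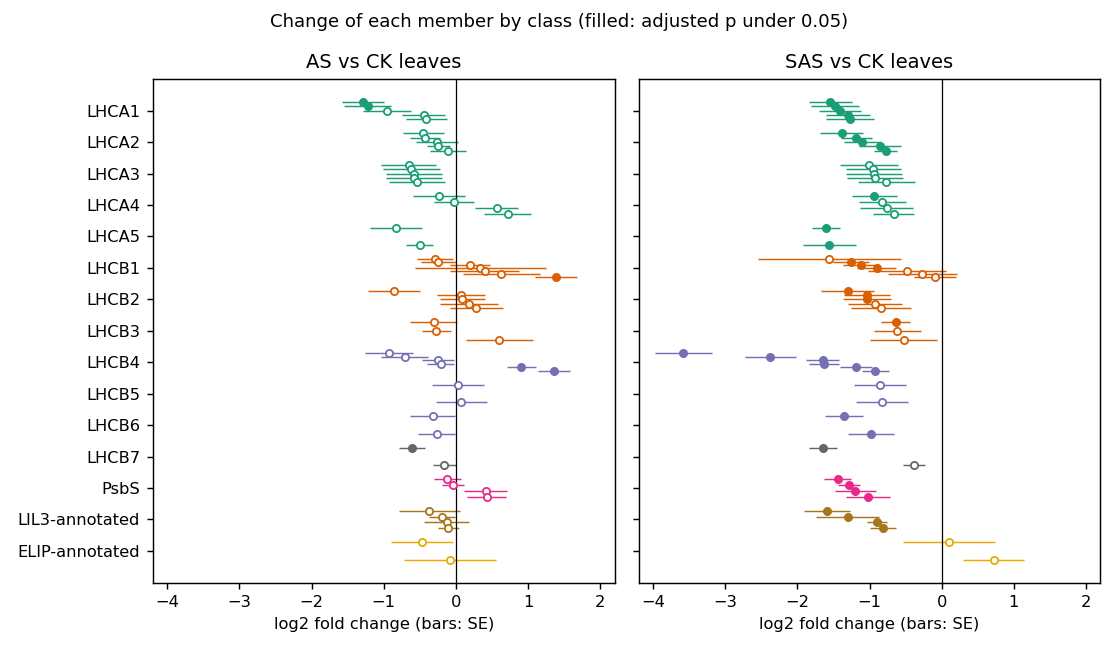
Log2 change against CK leaves, with its SE, for each member in AS and in SAS leaves by protein class; filled points passed edgeR's test at an adjusted p under 0.05. SAS values are negative for all 46 antenna genes and range from -3.58 to -0.09, while AS values lie on both sides of 0, from -1.29 to 1.39.

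In AS leaves, of 58 members tested, 3 rose and 3 fell against CK, where 20.7% of all genes tested changed (11.5% rose and 9.21% fell). Leaving out 1 library moved the 6 calls to between 2 (without AS leaf replicate 3) and 12 (without SAS leaf replicate 3), and the fit of all 18 libraries called 0 (edgeR; 3 at an unadjusted p under 0.05). The median log2 change was -0.24 over the members and -0.02 over all genes tested. The summed FPKM of the members was 2492, 3175 and 2111 in AS leaves, which overlapped CK, and its mean was 91.5% ± 19.0 (SD, n = 3) of CK. The share of higher calls among all genes depended on the scaling, at 55.5% with TMM factors and 70.8% with library totals alone. With library totals alone, 3 members rose and 2 fell.

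All 3 members that rose in AS leaves belonged to photosystem II. Gh_D10G2385 (LHCB4, chromosome D10, 62846184 to 62850081, minus strand) was at 16.1, 13.3 and 10.6 FPKM in CK and 29.2, 39.5 and 39.7 FPKM in AS leaves (1.36 ± 0.22, edgeR adjusted p = 0.00289). Gh_A10G2108 (LHCB4, chromosome A10, 99897367 to 99900705, minus strand) was at 16.7, 20.7 and 16.9 FPKM in CK and 25, 39.1 and 43.1 FPKM in AS leaves (0.90 ± 0.20, edgeR adjusted p = 0.0119; 0.74, adjusted p = 0.0519, without AS leaf replicate 3). The AS and CK libraries did not overlap in either gene. Both then stood at the opposite end in SAS leaves, at 5.05, 2.89 and 5.13 FPKM for Gh_D10G2385 (-1.65 ± 0.23 against CK, edgeR adjusted p = 2.74e-04) and 5.76, 4.89 and 7.20 FPKM for Gh_A10G2108 (-1.64 ± 0.21, edgeR adjusted p = 1.83e-04). The more abundant LHCB4 genes gave -0.21 ± 0.19 (Gh_D01G2232) and -0.25 ± 0.22 (Gh_A01G1972) in AS leaves and did not pass. The third, Gh_D06G2351 (LHCB1, scaffold4151_D06, 22119 to 22916, plus strand), went from 2.25, 2.0 and 1.85 FPKM to 6.85, 5.15 and 4.82 FPKM (1.39 ± 0.29, edgeR adjusted p = 0.0101).

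The members that fell in AS leaves were 2 LHCA1 genes and 1 LHCB7 gene. Gh_A13G0222 (LHCA1, chromosome A13, 2647208 to 2648681, minus strand) was at 79.2, 64.1 and 51.3 FPKM in CK and 30.9, 36.5 and 20.3 FPKM in AS leaves (-1.22 ± 0.33, edgeR adjusted p = 0.0268). Gh_Sca025165G01 (LHCA1, scaffold25165, 85 to 416, minus strand) was at 18, 18.6 and 11 FPKM in CK and 8.36, 6.25 and 5.83 FPKM in AS leaves (-1.29 ± 0.29, edgeR adjusted p = 0.0132). Both LHCA1 genes were lower in every AS library than in any CK library and were about as low in SAS leaves (-1.47 ± 0.33 and -1.41 ± 0.29 against CK). Gh_D03G0610 (LHCB7) was at 8.85, 14.3 and 11.8 FPKM in AS leaves (-0.61 ± 0.19, edgeR adjusted p = 0.0436). These 3 calls were fragile: that of Gh_A13G0222 was lost without CK leaf replicate 1 or 2 or AS leaf replicate 1 or 3 (adjusted p up to 0.0996), that of Gh_Sca025165G01 without CK leaf replicate 1 or 2 or AS leaf replicate 3 (up to 0.0607), and that of Gh_D03G0610 without any of 6 libraries, all 3 CK libraries among them (up to 0.145). Of the 21 photosystem I antenna genes 19 had a negative value (median -0.45), and the class medians were -0.96 for LHCA1 and -0.58 for LHCA3, although no LHCA3 gene passed. The LHCA share of the summed FPKM of the 46 antenna genes was 37.8% to 39.1% in CK libraries, 31.9% to 33.1% in AS libraries and 32.9% to 40.2% in SAS libraries.

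Set directly against each other, SAS leaves had less antenna RNA than AS leaves. Of 58 members 31 were lower and 1 was higher in SAS, where 40.0% of all genes tested differed (19.3% lower and 20.7% higher). Without SAS leaf replicate 3 the counts were 47 and 1, where 42.9% of all genes tested differed. All 6 LHCB4 and all 4 PsbS genes were lower, as were 2 of 5 LHCA1 and 0 of 5 LHCA3 genes. Without SAS leaf replicate 3, 3 LHCA1 and 4 LHCA3 genes were lower, and the difference between classes was not tested. The largest differences were in LHCB4 genes, among them -3.01 ± 0.23 for Gh_D10G2385 (edgeR adjusted p = 1.88e-04) and -2.54 ± 0.21 for Gh_A10G2108 (edgeR adjusted p = 2.01e-04). The LHCB4 gene Gh_D06G1791 gave -2.65 ± 0.39, which is a description, because it passed the FPKM rule only through CK and AS leaves. In the LHCA4 class, Gh_D12G1757 was at 20.5, 26.1 and 15.4 FPKM in AS and 4.10, 5.18 and 11.5 FPKM in SAS leaves (-1.54 ± 0.33, edgeR adjusted p = 0.00577). The PsbS gene Gh_A01G1598 was at 129, 132 and 139 FPKM in AS leaves, above every SAS library (-1.33 ± 0.19, edgeR adjusted p = 0.00108). The single higher member was Gh_A09G2229 (ELIP-annotated; 1.19 ± 0.43, edgeR adjusted p = 0.0487), a call lost without SAS leaf replicate 1 (0.65, adjusted p = 0.217) and under 11 further alternatives. With no filter, Gh_D09G2122 (ELIP-annotated) was the higher member (2.32 ± 0.63, edgeR adjusted p = 0.0189; 1.52, adjusted p = 0.134, without SAS leaf replicate 1).

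Roots were described through the 11 members that passed the FPKM rule there. A member that reached the rule only in some root groups was favoured to be higher there, so counts over these 11 are descriptions. All members with counts were also fitted with no filter, which tested 56 of 59. In AS roots 7 of 56 rose and 0 fell against CK (23.3% of all genes called in either direction without a filter). Of all 61251 genes in that fit, 8303 rose and 5996 fell. In SAS roots 9 of 56 rose and 1 fell (37.9%), where 11925 of all genes rose and 11307 fell. Neither count of rises exceeded the share of all genes that rose. Of the 11 that passed the filter, 5 rose and 0 fell in AS roots, where 38.0% of all genes tested changed (21.0% rose, 17.0% fell). There edgeR at an unadjusted p under 0.05 gave 1 lower, while by adjusted p DESeq2 called 0 lower and limma 1. In SAS roots 6 rose and 1 fell, where 57.0% changed (28.6% rose, 28.3% fell). Root changes depend on the scaling. With library totals alone the median log2 change of all genes was -0.48 in AS and -0.59 in SAS roots, against -0.01 and -0.06 with TMM factors. The share of higher calls among all genes went from 55.2% to 24.7% and from 50.2% to 28.8%. FPKM values in roots carry the authors' own scaling, so their ratios can lie below the fitted changes.

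**Figure D4:**
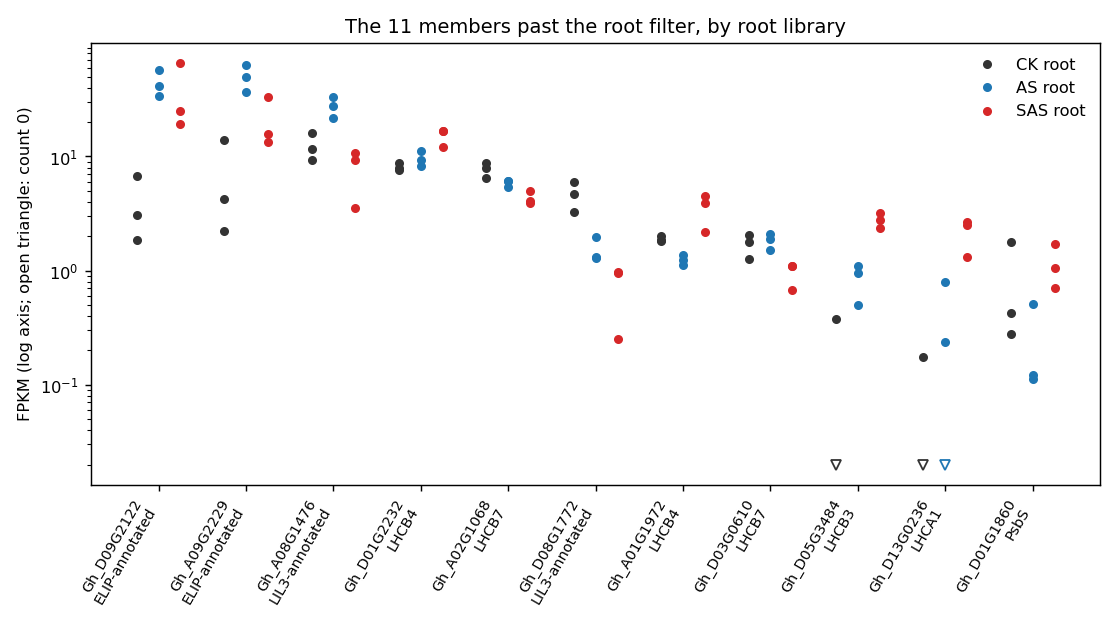
FPKM (log axis) of the 11 members that passed the FPKM rule in roots, in each of the 9 root libraries by group. Gh_D09G2122 and Gh_A09G2229 (ELIP-annotated) lie higher in all AS libraries than in any CK library.

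The ELIP-annotated genes carried most of the root change in summed FPKM. Gh_D09G2122 was at 6.74, 3.10 and 1.84 FPKM in CK, 41.2, 57.8 and 34.1 FPKM in AS and 65.3, 19.2 and 24.8 FPKM in SAS roots. It rose in both (4.04 ± 0.57, edgeR adjusted p = 6.30e-04 in AS; 3.79 ± 0.56, adjusted p = 3.46e-04 in SAS, or 3.10 without SAS root replicate 1), with no overlap with CK. Gh_A09G2229 was at 13.8, 4.26 and 2.24 FPKM in CK, 49.5, 63.5 and 36.6 FPKM in AS and 33.2, 13.4 and 15.9 FPKM in SAS roots. It rose in AS roots (3.42 ± 0.61, edgeR adjusted p = 0.00211) and in SAS roots (2.2 ± 0.58, adjusted p = 0.00897), where 1 SAS library lay below the highest CK library by FPKM, and without CK root replicate 1 the changes were 4.38 and 3.16. ELIP-annotated genes made up 8.35% to 29.5% of the summed FPKM of the members in CK roots, 59.4% to 66.6% in AS roots and 39.8% to 66.2% in SAS roots.

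Antenna genes proper stayed at low levels in treated roots. Their summed FPKM was 16.0 ± 1.34 (SD, n = 3) in CK, 18.7 ± 2.50 in AS and 34.7 ± 3.34 in SAS roots. The LHCB4 gene Gh_D01G2232 accounted for much of it, at 8.72, 7.54 and 7.94 FPKM in CK, 11.2, 9.22 and 8.20 FPKM in AS and 12.1, 16.6 and 16.6 FPKM in SAS roots. Its rise held in SAS roots (1.45 ± 0.20, edgeR adjusted p = 2.12e-04), whereas that in AS roots (0.73 ± 0.20, adjusted p = 0.0160) was lost with library totals alone (0.26, adjusted p = 0.277), in limma on log2(FPKM + 1) (0.21, adjusted p = 0.313) and without CK root replicate 2 or AS root replicate 1 or 2 (adjusted p up to 0.0613). Gh_A01G1972 (LHCB4) rose in SAS roots, from 1.85, 1.82 and 2.03 FPKM to 3.95, 4.47 and 2.2 FPKM (1.43 ± 0.30, edgeR adjusted p = 0.00269), and gave -0.12 ± 0.30 in AS roots. The LHCB3 gene Gh_D05G3484 was at 0, 0 and 0.376 FPKM in CK, 0.499, 0.960 and 1.10 FPKM in AS and 2.75, 3.19 and 2.37 FPKM in SAS roots. It passed the root FPKM rule only through treated libraries, so its test is given from the fit with no filter. There the change was 3.15 ± 1.0 in AS (edgeR adjusted p = 0.0444) and 4.85 ± 1.06 in SAS roots (adjusted p = 0.00375). It rests on 18 counts in CK root replicate 3, the one CK root library with any, and in the filtered fit the AS call was lost without any of 5 other root libraries (adjusted p up to 0.0832). Gh_D13G0236 (LHCA1) was at 0, 0 and 0.174 FPKM in CK and 1.32, 2.49 and 2.67 FPKM in SAS roots and passed the rule only through SAS roots. With no filter its change was 5.55 ± 1.44 in SAS roots (edgeR adjusted p = 0.0102), on 8 counts in CK root replicate 3 and none in the other CK root libraries.

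The relatives of the antenna split in roots. The LIL3-annotated gene Gh_A08G1476 was at 11.5, 9.36 and 16.0 FPKM in CK, 27.7, 33.0 and 21.9 FPKM in AS and 10.8, 3.54 and 9.29 FPKM in SAS roots. It rose in AS roots (1.64 ± 0.39, edgeR adjusted p = 0.00903) and was lower in SAS than in AS roots (-1.75 ± 0.39, adjusted p = 0.00655). In SAS roots it did not pass against CK (-0.11 ± 0.38, edgeR adjusted p = 0.824). Its class mate Gh_D08G1772 fell in SAS roots, from 5.96, 4.70 and 3.28 FPKM in CK to 0.954, 0.254 and 0.973 FPKM in SAS roots (-2.10 ± 0.48, edgeR adjusted p = 0.00436), with 1.31, 1.96 and 1.29 FPKM in AS roots (-1.10 ± 0.46, adjusted p = 0.0858). This gene passed the root FPKM rule only through CK and AS roots, which favours a fall in SAS, so that SAS call is a description. With no filter its SAS change was -2.09 ± 0.49 (edgeR adjusted p = 0.00540). SAS against AS roots gave 3 higher and 2 lower of 11 (39.7% of all genes tested differed, 20.7% higher and 19.0% lower). These were Gh_D01G2232 (0.72 ± 0.20, edgeR adjusted p = 0.0153) and Gh_A01G1972 (1.56 ± 0.30, adjusted p = 0.00334) of LHCB4 and Gh_D01G1860 of PsbS, with Gh_A08G1476 and Gh_D03G0610 of LHCB7 (-0.89 ± 0.32, adjusted p = 0.0480) lower. Gh_D01G1860 passed the root rule only through CK root replicate 1 and SAS root replicates 1 and 2, so its call is a description. With no filter its change was 2.25 ± 0.80 and did not pass (edgeR adjusted p = 0.0620). The call of Gh_D01G1860 was lost under 8 of 16 alternatives, that of Gh_D03G0610 under 10 of 16, and that of Gh_D01G2232 without SAS root replicate 2 or 3. The LHCB7 gene Gh_A02G1068, at 6.07, 6.08 and 5.45 FPKM in AS and 4.06, 5.0 and 3.89 FPKM in SAS roots, did not pass in any root comparison (log2 -0.38 to 0.09). Against CK in SAS roots it fell with library totals alone (-0.82, edgeR adjusted p = 0.00212) and in limma on log2(FPKM + 1), and against AS it was lower in SAS roots without AS root replicate 3 (-0.50, edgeR adjusted p = 0.0498).

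For the 10 members that passed in both tissues, the responses of leaf and root were compared by an interaction term. The AS response was lower in leaf than in root for 6 of them and higher for 0, where 35.2% of all genes tested were called, 18.2% lower and 17.0% higher. The SAS response was also lower in leaf for 6 and higher for 0, where 49.0% were called, 24.2% lower and 24.8% higher. These counts include Gh_D13G0236 and Gh_D05G3484, which entered through treated roots alone, and without them 4 of 8 were lower in each. The 4 for SAS include Gh_D01G1860, which passed the root rule only through CK root replicate 1 and SAS root replicates 1 and 2. With no filter its SAS difference was -2.52 ± 0.65 (edgeR adjusted p = 0.00768). The largest AS difference was -3.94 ± 0.79 for Gh_A09G2229 (edgeR adjusted p = 0.00146). The largest SAS value, -7.05 ± 1.12 for Gh_D13G0236, is a description, and with no filter it was -7.00 ± 1.15 (edgeR adjusted p = 2.44e-04). Among the other members the SAS difference was largest for Gh_A01G1972, at -2.82 ± 0.37 (edgeR adjusted p = 1.59e-05). With library totals alone the median of all genes was 0.62 in AS and 0.81 in SAS, against 0.02 and 0.05 with TMM factors. The members called lower were then 4 and 5 with 1 higher in each. Of all 35697 genes, 2800 and 4185 were then called lower and 15302 and 18677 higher. DESeq2 called 6 lower and 0 higher in AS and 7 lower and 1 higher in SAS, where 14115 and 18540 of 35697 genes were called. At an unadjusted p under 0.05, edgeR gave 6 lower and 0 higher in AS and 8 and 1 in SAS.

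Genes that work with the antenna were followed through lists matched to the deposited descriptions. In SAS leaves 102 of 126 tested photosystem core genes fell and 0 rose (median log2 change -1.27), as did 28 of 38 chlorophyll synthesis genes, with 3 higher (-0.66). Genes for import and insertion of antenna proteins into chloroplasts gave 21 of 37 lower and 3 higher (-0.44), and 14 of 21 antenna regulators fell with 1 higher (-0.75). Chlorophyll breakdown genes differed from these lists, with 10 of 19 higher and 6 lower (0.96). Leaf markers moved with the antenna: 29 of 34 fell and 3 rose (-1.22), their summed FPKM was 5787 to 11914 in SAS leaves, and none was at 0 there. Root markers gave 10 higher and 3 lower of 20, with a sum of 165 to 189 FPKM and 23 of 62 genes at 0. The part of these markers in the result was not tested. Without SAS leaf replicate 3, 109 core genes fell and 0 rose, 28 synthesis genes fell and 4 rose, and 10 breakdown genes rose and 6 fell. Insertion genes then gave 22 lower and 1 higher, and regulators 16 lower and 1 higher. Leaf markers gave 29 lower and 3 higher, and root markers 10 higher and 3 lower.

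**Figure D5:**
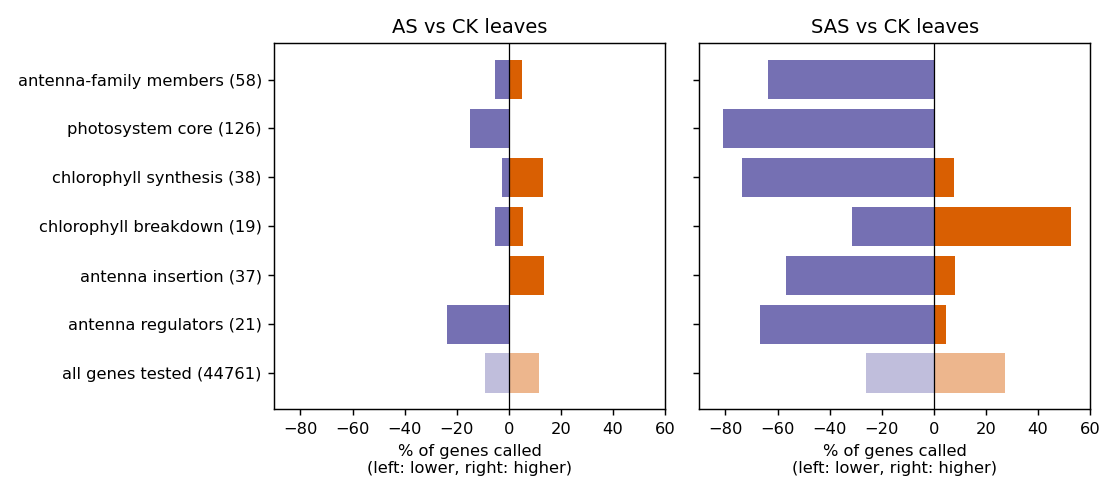
Percentage of tested genes called higher and lower against CK in AS and SAS leaves, for the members, 5 related lists and all genes. In SAS leaves the photosystem core (102 of 126 lower), chlorophyll synthesis (28 of 38) and the members (37 of 58) exceed the 26.0% of all genes called lower.

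Within those lists, the gene for photosystem I subunit O Gh_A07G1013 went from 1.36 ± 0.944 to 0.172 ± 0.298 FPKM in SAS leaves (SD, n = 3, with a log2 change of -2.84 ± 1.0 SE). Gh_A13G1234, protochlorophyllide oxidoreductase A, which reduces a chlorophyll precursor in the light, went from 1.75 ± 0.401 to 0.124 ± 0.170 FPKM (-3.78 ± 0.88). Both genes were under 1 FPKM in every SAS leaf library and passed the FPKM rule only through CK and AS leaves. That favours a fall in SAS, so the falls of Gh_A07G1013 and Gh_A13G1234 are descriptions. Gh_D03G1494, annotated as non-yellowing 1, a name given to genes that promote chlorophyll loss in ageing leaves, rose from 1.75 ± 0.248 to 9.96 ± 7.29 FPKM (2.46 ± 0.42, edgeR adjusted p = 9.24e-04). Gh_A11G3067, phytochrome interacting factor 3, a light-signalling transcription factor, fell from 8.16 ± 1.17 to 2.28 ± 0.446 FPKM (-1.87 ± 0.20, edgeR adjusted p = 7.83e-05). Gh_D09G2309, an outer-envelope translocon gene, fell from 19.0 ± 1.10 to 6.80 ± 2.25 FPKM (-1.51 ± 0.20, edgeR adjusted p = 2.13e-04).

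In AS leaves 19 of 126 photosystem core genes fell and 0 rose (median log2 change -0.36), 5 of 38 chlorophyll synthesis genes rose and 1 fell, 5 of 37 insertion genes rose and 0 fell, and 5 of 21 regulators fell and 0 rose. Beside the 11.5% of all genes that rose and 9.21% that fell, the synthesis and insertion counts are close to the background. Gh_D05G1598 (photosystem II subunit Q-2) fell from 40.6 ± 10.7 to 21.1 ± 3.26 FPKM (-1.02 ± 0.19, edgeR adjusted p = 0.00586), and Gh_A11G3067 fell to 4.13 ± 1.03 FPKM (-1.06 ± 0.19, edgeR adjusted p = 0.00506). Gh_D08G2015, chlorophyllase 1, an enzyme that removes the phytol tail of chlorophyll, went from 0.650 ± 0.280 to 3.10 ± 0.861 FPKM (2.16 ± 0.41). It was under 1 FPKM in every CK leaf library and passed the FPKM rule only through treated leaves, which favours a rise. This rise, picked as the largest of the breakdown list, is therefore a description. The same list also held a called fall without overlap in AS leaves, in Gh_A10G1735. Leaf markers gave 1 higher and 3 lower, with a sum of 19981 to 21452 FPKM. In roots, 12 of 50 tested core genes rose and 1 fell in AS, and 22 rose and 2 fell in SAS, while breakdown genes gave 6 higher and 1 lower of 14 in AS and 11 higher and 0 lower in SAS. Of all genes tested in roots 21.0% rose and 17.0% fell in AS, and 28.6% rose and 28.3% fell in SAS, so that the 12 of 50 in AS is close to the background. Summed leaf marker FPKM was 591 to 783 in AS roots and 141 to 233 in SAS roots, against 703 to 789 in CK roots, with 2, 1 and 2 of 36 genes at 0. Summed root marker FPKM was 228 to 290 and 214 to 285 against 410 to 438, with 17, 19 and 19 of 62 genes at 0. The part of these markers in the root results was not tested.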

How the data were processed

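Poly(A) RNA of 18 libraries was sequenced as paired ends, per the labels' protocols. The authors deposited 1 table of whole read counts per gene and FPKM values. HISAT and StringTie are named in the submitters' processing notes, and the genome build, tool versions and strandedness are not given in the sources used here. A count of 0 is listed in the deposited table at an FPKM of 0.0001, printed here as 0. Among counts from 1 to 20, 56.1% to 59.8% were even in each library, so a deposited count may not be 1 fragment.

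Groups were taken from the labels. Members were chosen by description and had to reach 1 FPKM in 3 or more libraries. Classes came from the deposited KEGG and GO annotations, because descriptions alone often give no class. Their grouping into roles was set here. The members and lists were chosen with earlier results of these data known.

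Genes that reached 1 FPKM in 3 or more of the 9 libraries of a tissue (44761 in leaves, 39584 in roots) were fitted to counts with edgeR 4.0.16 in R 4.3.3 (TMM factors, quasi-likelihood test, Benjamini-Hochberg adjusted p under 0.05 over all genes tested). CK leaves and roots were compared in a fit of all 18 libraries (48954 genes), and the difference of responses between tissues over 35697 genes. The script was tested on simulated data. Alternatives were DESeq2 1.42.0, limma 3.58.1 on log2(FPKM + 1) and log2(FPKM + 0.1), library totals as the only scaling, no filter, a stricter filter, a replicate block, 1 fit of all libraries, and leaving out each library. Folds against a group at 0 counts used a floor of 3 counts per library.

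Genes were named by rule: the highest member of each class in CK leaves, the 5 highest over roots, per comparison the 3 largest called rises and falls without overlap, the largest called difference between tissues, members within 100 kb of another, and per list the largest called rise and fall, of which a part is printed. Other members named were chosen after their values were seen. None of the gene IDs matched the available RefSeq table, so no sequences were printed.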

Additional observations from a re-analysis of the deposited data

Results flagged for a closer look

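For the members tested in both tissues, the response in leaf minus the response in root differed from 0 by the interaction test in the following cases, with log2 values, SE and edgeR adjusted p. For AS, the difference was -3.94 ± 0.79 for Gh_A09G2229 (ELIP-annotated, adjusted p = 0.00146), -3.89 ± 1.27 for Gh_D13G0236 (LHCA1, adjusted p = 0.0265) and -3.45 ± 0.81 for Gh_D05G3484 (LHCB3, adjusted p = 0.00423). It was -1.81 ± 0.44 for Gh_A08G1476 (LIL3-annotated, edgeR adjusted p = 0.00507), -1.27 ± 0.34 for Gh_D03G0610 (LHCB7, adjusted p = 0.00881) and -1.0 ± 0.30 for Gh_D01G2232 (LHCB4, adjusted p = 0.0161). All these responses were lower in leaf than in root.

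For SAS, the difference was -7.05 ± 1.12 for Gh_D13G0236 (edgeR adjusted p = 9.77e-05), -5.71 ± 0.79 for Gh_D05G3484 (adjusted p = 2.73e-05) and -2.82 ± 0.37 for Gh_A01G1972 (LHCB4, adjusted p = 1.59e-05). It was -2.57 ± 0.30 for Gh_D01G2232 (edgeR adjusted p = 5.84e-06), -2.56 ± 0.65 for Gh_D01G1860 (PsbS, adjusted p = 0.00399) and -1.57 ± 0.35 for Gh_D03G0610 (adjusted p = 0.00150). Gh_D13G0236 and Gh_D05G3484 passed the root FPKM rule only through treated roots, so their values above are descriptions, and they rest on CK root libraries with few or no counts. Gh_D01G1860 passed it only through CK root replicate 1 and SAS root replicates 1 and 2. With no filter its SAS difference was -2.52 ± 0.65 (edgeR adjusted p = 0.00768). Without CK root replicate 3, the SAS difference of Gh_D13G0236 was -11.66, and without CK root replicate 1, the AS difference of Gh_A09G2229 was -4.91.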

How the results depend on the processing

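No called member changed sign under the alternatives run, while 67 of 5435 values, called in neither fit, did. The majority of calls over all genes turned from higher to lower in AS roots with library totals alone (55.2% to 24.7% higher). Among single genes, 705 of the values outside the left-out-library fits kept their side of the threshold, 40 lost the call and 23 gained it; with 1 library left out, these were 857, 56 and 14. With all 18 libraries in 1 edgeR fit, called members numbered 0 for AS against CK, 19 for SAS against CK and 11 for SAS against AS in leaves, and 13, 21 and 19 in roots, of 59 tested in each. In that fit 8.21%, 33.7% and 18% of all genes were called in leaves and 42.0%, 57.5% and 42.6% in roots, so that 19 members for SAS against CK leaves is near the share of all genes, with 18 of the 19 lower. In that fit 3 members had an unadjusted p under 0.05 for AS against CK leaves (1 higher and 2 lower). In the fits of leaves alone, DESeq2 called 8 and limma 6 by adjusted p. With a minimum of 5 FPKM, they were 3 for SAS against CK and 2 for SAS against AS in roots, and 2 and 1 for the AS and SAS responses compared between tissues. With no filter, these were 3 for SAS against AS in roots, 12 and 23 for the responses. As a share of counts, the AS root sum was 211% of CK.

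Leaving out 1 library, called members ranged from 2 (without AS leaf replicate 3) to 12 (without SAS leaf replicate 3) for AS against CK leaves, where they were also 3 without CK leaf replicate 1 or 2. They ranged from 28 to 50 for SAS against CK leaves, 20 (without AS leaf replicate 2) to 48 (without SAS leaf replicate 3) for SAS against AS leaves, 3 (without CK root replicate 2 or AS root replicate 2) to 6 for AS against CK roots, 7 to 8 for SAS against CK roots, 2 (without SAS root replicate 2) to 6 for SAS against AS roots, 58 to 59 for leaf against root, and 5 to 6 and 6 to 8 for the AS and SAS responses. With all libraries kept, AS against CK, SAS against CK and SAS against AS called 20.7%, 53.2% and 40.0% of all genes in leaves. In roots they called 38.0%, 57.0% and 39.7%. The share was 66.2% for leaf against root, and 35.2% and 49.0% for the AS and SAS responses. Summed FPKM ranged from 81.2% to 100.01% of CK in AS leaves, 38.3% to 55.4% in SAS leaves, 245% to 317% in AS roots and 159.7% to 228% in SAS roots.

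Replicate numbers gave no clear sign of pairing: same-numbered libraries correlated from -0.132 to 0.126 over 9 leaf pairs and -0.0977 to 0.0526 over 9 root pairs. Over the 45 pairs of a fit with both tissues the range was -0.119 to 0.142, with 2 pairs over 0.1. With 3 libraries per group these values cannot exclude pairing. With the replicate block, called members were 4, 32 and 26 in leaves, 5, 7 and 4 in roots, 59 between tissues, and 6 and 7 for the responses. Of all genes it called 7141, 22306 and 15858 of 44761 in leaves and 13039, 21070 and 13930 of 39584 in roots. Between tissues it called 31760 of 48954, and for the responses 11847 and 16838 of 35697. DESeq2 gave 8, 44 and 36 members in leaves, where 11954, 25076 and 19841 of 44761 genes were called. The fits without SAS leaf replicate 3 for roles and lists, and those of Gh_D09G2122 with no filter and 1 SAS leaf library left out, were chosen after seeing the data. Limits are 3 libraries per group, low root counts and shared reads between copies.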
